A study of Mus musculus with 9 samples.

Results

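Of the 1256831 probe sets on the array, 6684 carry 2 or more gene symbols in the platform annotation, and 4229 of these (63.27%) reached the median of the table, 6.07, in their mean log2 value over the 9 arrays. These 4229 probe sets are described here. The lowest member kept had a mean of 6.06841 and the highest left out 6.06656. A probe set of this kind may lie where genes overlap or are joined in one transcript, its probes may match a family of near-identical genes or a gene and its pseudogene, or its symbols may be older and newer names of 1 gene. They were grouped by the exact string of symbols, which gave 1089 strings. In 501 strings 1 probe set was kept, in 190 strings 2 were kept, and in 398 strings at least 3 were kept, with a median of 6. Those 398 strings, which hold 3348 of the probe sets, are called loci here, and each locus is given as the mean of its kept probe sets on the log2 scale. Strings are written with a slash between the symbols as the annotation spells them (Cbx6/Npcd/Nptxr). A value of a locus belongs to the string as written: the array does not say which of its genes the RNA came from.

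The cells were primary cortical neurons from C57BL/6 mouse embryos on embryonic day 15. All groups shared the neuron medium and an overnight exposure to AraC, which stops dividing cells. On day 5 each culture received, for 4 h, lentivirus with the control hairpin shCont or a hairpin directed at Tdp-43, of which there were 2 (named shTdp-43-1 and shTdp-43-2), and RNA was taken on day 11, after 6 days without virus (3 arrays per group, 100 ng of RNA each). The series design text names motor neurons and counts 11 days from transfection; the sample labels were used. Nothing in the labels says whether the arrays of a group came from separate cultures, so p-values measure the spread between these arrays, which may be technical.

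Tdp-43, encoded by Tardbp, binds GU-rich RNA in the nucleus, keeps cryptic exons out of messages and controls the stability of many neuronal transcripts, and it is lost from the nucleus of affected neurons in amyotrophic lateral sclerosis. Where 2 genes lie close together, RNA polymerase may run from one into the next and give a read-through transcript, and genes that face each other may overlap at their ends. Tandem duplication gives families of near-identical genes, and reverse transcription of a message leaves processed pseudogenes on other chromosomes, so that one probe can match several places. An exon array records all of these as several symbols on one probe set.

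The starts of some genes described below are shown here, chosen after the values were seen, to set pairs of genes that share a start beside pairs that do not. Each is the 150 bases before the annotated start, 5′ to 3′ on the strand of the gene, from RefSeq (GRCm38.p6, not the build mm9 named for the array). Capitals mark GC boxes (GGGCGG, or CCGCCC on the other strand), which 28.6% of the 32851 promoters in that table hold in the same window.
Cbx6, chr15:79834334-79834483, minus strand: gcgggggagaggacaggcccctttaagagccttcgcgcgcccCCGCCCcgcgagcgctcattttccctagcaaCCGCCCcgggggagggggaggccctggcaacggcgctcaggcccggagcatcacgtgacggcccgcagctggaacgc
Cpne1 and Rbm12, chr2:156111966-156112115, minus strand: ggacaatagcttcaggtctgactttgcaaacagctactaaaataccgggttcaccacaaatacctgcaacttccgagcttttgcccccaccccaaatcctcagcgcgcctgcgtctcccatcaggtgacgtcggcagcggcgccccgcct
Gprasp1 and Armcx5, chrX:135742542-135742691, plus strand: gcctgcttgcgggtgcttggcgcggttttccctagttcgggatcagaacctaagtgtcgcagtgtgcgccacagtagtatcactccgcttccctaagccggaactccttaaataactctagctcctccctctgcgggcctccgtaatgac
Itga4, chr2:79255276-79255425, plus strand: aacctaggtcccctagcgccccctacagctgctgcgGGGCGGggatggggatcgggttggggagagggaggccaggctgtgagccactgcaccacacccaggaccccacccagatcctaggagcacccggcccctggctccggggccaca
Cerkl, chr2:79428989-79429138, minus strand: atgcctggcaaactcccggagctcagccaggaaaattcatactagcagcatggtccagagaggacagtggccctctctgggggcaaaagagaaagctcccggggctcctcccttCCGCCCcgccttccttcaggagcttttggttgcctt
Lrrc8a, chr2:30237619-30237768, plus strand: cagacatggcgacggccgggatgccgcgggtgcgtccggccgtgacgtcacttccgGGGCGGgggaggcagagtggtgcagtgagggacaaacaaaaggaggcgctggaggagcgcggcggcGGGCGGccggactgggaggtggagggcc
Phyhd1 (the first of its 3 starts), chr2:30266053-30266202, plus strand: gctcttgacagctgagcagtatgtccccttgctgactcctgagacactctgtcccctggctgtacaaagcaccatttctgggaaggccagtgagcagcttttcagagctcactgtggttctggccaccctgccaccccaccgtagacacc
Cpne1 and Rbm12 have one and the same window, and so do Gprasp1 and Armcx5, while Itga4 and Cerkl start far apart on opposite strands of chromosome 2 and Lrrc8a and Phyhd1 start apart on the same strand. Of 415 strings of 2 genes whose promoters are both in the table, 9 have identical windows, 9 have windows that overlap and 397 have separate ones. A GC box was found 2 times before Cbx6, 2 times before Lrrc8a and 1 time each before Itga4 and Cerkl, and was not found in the other windows shown. A match is a description of letters, not of a binding site.

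Tardbp fell from a mean log2 level of 9.92 in shCont to 8.21 in shTdp-43-1 and 8.23 in shTdp-43-2, changes of -1.72 and -1.69 (limma adjusted p = 0.000391 and 0.000121). Over the multi-symbol loci, arrays of one group correlated across loci with r from 0.987 to 0.993, and the lowest r of any pair of arrays was 0.978. The median log2 value of the member probe sets lay between 9.06 and 9.21 on all arrays. Of 7 measured neuron markers, 2 were called higher and 1 lower with shTdp-43-1, and 1 higher and 2 lower with shTdp-43-2. Their shCont log2 levels ran from 9.878 to 12.33. Neurod6 was lower and Gad2 higher with both. Gad1 was higher with shTdp-43-1 (0.29) and lower with shTdp-43-2 (-0.32). The mean of the neuron list per array ran from 11.07 to 11.16 in shCont. It ran from 11.2 to 11.41 in shTdp-43-1 and from 11.06 to 11.18 in shTdp-43-2. Of 5 astrocyte markers, 1 was lower with shTdp-43-1 and 2 with shTdp-43-2, and the mean of the list per array ran from 10.16 to 10.35 in shCont, 10.06 to 10.12 in shTdp-43-1 and 10.06 to 10.14 in shTdp-43-2. The progenitor marker Eomes was lower with both hairpins (1 of 5), and the endothelial marker Tek was higher with shTdp-43-2 (1 of 3). Among 4 measured markers of fibroblasts and pericytes, 2 were lower with shTdp-43-1 and 3 with shTdp-43-2. Over all strings tested, 5.86% and 14.0% were lower. Col1a1 had a change of 0.14 with each hairpin and was not called. The mean log2 level of the list per array ran from 8.985 to 9.134 in shCont. It ran from 8.685 to 8.808 in shTdp-43-1 and from 8.344 to 8.566 in shTdp-43-2. The part of these cell types in the results below was not tested. The 5 microglia markers, with shCont levels from 6.60 to 7.73, and the 5 oligodendrocyte markers had no call in limma with either hairpin. In bulk RNA, fewer cells of a type and less RNA per cell cannot be told apart.

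At the locus level, the share of multi-symbol strings called was at or under that of all strings in each count below. The difference in shares was not tested. Multi-symbol loci had a median of 6 probe sets, and the shares were not matched for the number of probe sets per string. All comparisons used limma on all 17232 strings with at least 3 kept probe sets, single genes included, and a locus was called at an adjusted p under 0.05. With shTdp-43-1, 10 of the 398 loci were higher (2.51%, against 5.06% of all strings tested) and 22 were lower (5.53%, against 5.86%). With shTdp-43-2, 20 were higher (5.03%, against 7.67%) and 45 were lower (11.3%, against 14.0%). For shTdp-43-1 the loci had a median change of 0.0039, beside 0.0057 over all strings tested, and for shTdp-43-2 of 0.0024, beside -0.0074. With the arrays centred on their medians, the shTdp-43-1 calls were 6 higher and 36 lower.

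The same direction was called with both hairpins at 13 loci, 3 higher (0.754%, against 2.87% of all strings) and 10 lower (2.51%, against 3.41%). The 2 comparisons share the control arrays. Between the hairpins, 14 loci were higher with shTdp-43-2 than with shTdp-43-1 (3.52%, against 4.23%) and 29 were lower (7.29%, against 7.33%). After centring, the 2 splits became 2 higher and 16 lower with both hairpins, and 28 higher and 20 lower between the hairpins, so the direction of the excess between the hairpins depended on it. The smaller counts fell on leaving out arrays. This also leaves fewer arrays to test with, so a lost call need not mark an unusual array. The 32 loci called with shTdp-43-1 became 11, 14 and 15 when shCont replicates 1, 2 and 3 were left out in turn. They became 13 and 14 when shTdp-43-1 replicates 2 and 3 were. The 13 loci called with both hairpins became 5, 7 and 7 on leaving out shCont replicates 1, 2 and 3, and 6 and 8 on leaving out shTdp-43-1 replicates 2 and 3. The 43 between the hairpins became 23 on dropping shTdp-43-2 replicate 1 and 26 on dropping shTdp-43-1 replicate 2, and the 65 with shTdp-43-2 were 43 without shCont replicate 1 or shTdp-43-2 replicate 1.

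**Figure D1:**
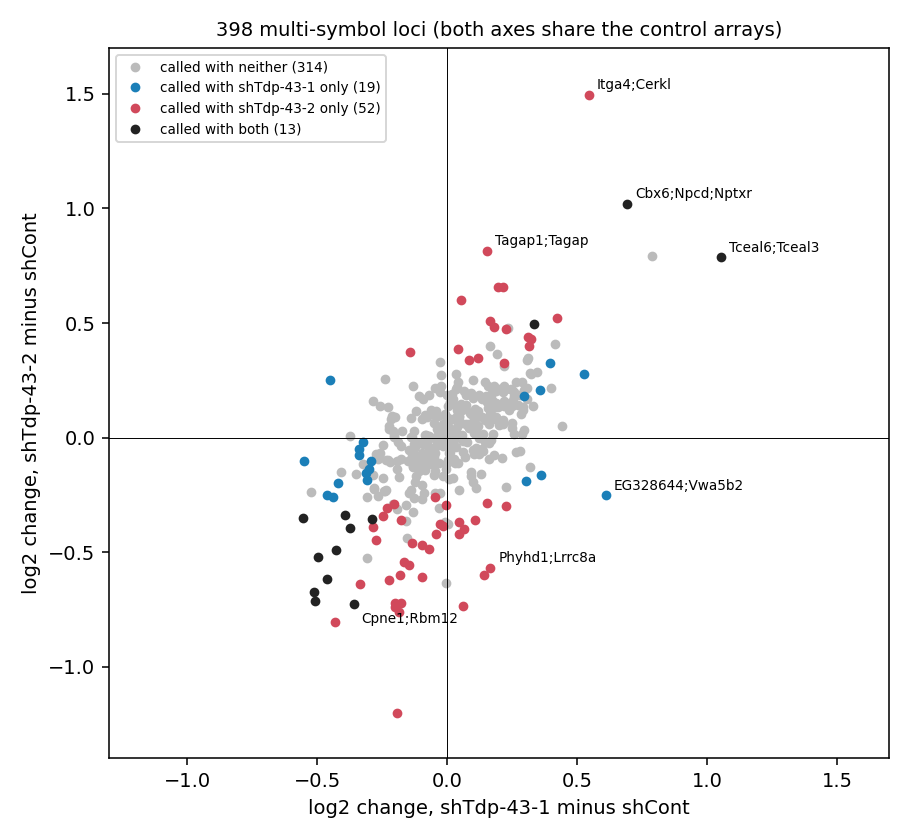
Log2 change of each of the 398 multi-symbol loci with shTdp-43-1 (horizontal axis) and with shTdp-43-2 (vertical axis), each against the same 3 shCont arrays that both axes share. One point is a locus, coloured by the limma calls: 314 were called with neither hairpin, 19 with shTdp-43-1 alone, 52 with shTdp-43-2 alone and 13 with both; Itga4/Cerkl lies highest.

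Probe sets taken one by one gave a narrower picture, tested over all 628416 kept probe sets of the table. With shTdp-43-1, 0 of the 4229 members were called higher (background 0.0508%) and 0 lower (background 0.0336%) by limma, while 482 (11.4%, against 11.9% of all) passed 0.05 before adjustment. With shTdp-43-2, 57 members were higher (1.35%, against 0.506%) and 62 were lower (1.47%, against 1.03%). Between the hairpins, 2 were higher (background 0.0672%) and 9 lower (background 0.176%). In the same direction with both hairpins, 0 were called higher (background 0.0404%) and 0 lower (background 0.0256%), and 223 (5.27%, against 4.47% of all probe sets) had an unadjusted p under 0.05 with the same sign in both.

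The 119 probe sets called with shTdp-43-2 were not spread over many loci. They lie in 34 strings, none of which holds calls in both directions, and 40 of the 57 higher ones (70.2%) lie in 2 strings, 27 in Itga4/Cerkl and 13 in Cbx6/Npcd/Nptxr. Among the lower ones, Cpne1/Rbm12 holds 12, Acss2/Myh7b 7, and 2010321M09Rik/6330549D23Rik and BC051142/Tesb 6 each. Probe sets of one string lie in the same genes and are not independent observations. Members were kept by their mean over all arrays, so a probe set dim in shCont could be kept for its hairpin values. How many of the 27 in Itga4/Cerkl, a string dim in shCont, were kept in this way was not tested. The 119 also fell on leaving out arrays, which leaves fewer arrays to test with. Leaving out shCont replicates 1, 2 and 3 gave 13, 10 and 20, and leaving out shTdp-43-1 replicates 2 and 3 gave 75 and 66. Leaving out shTdp-43-2 replicates 1, 2 and 3 gave 20, 67 and 50.

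Cbx6/Npcd/Nptxr rose with both hairpins and had the largest rise with a call in both among loci of more than 3 probe sets. Cbx6 encodes a chromobox protein of Polycomb complexes, Nptxr encodes the neuronal pentraxin receptor, which gathers glutamate receptors at synapses, and RefSeq lists Npcd as a gene that spans both, with the synonym Cbx6-Nptxr. They lie on chromosome 15. The log2 values of its 17 probe sets averaged 9.68, 9.58 and 9.77 in shCont, 10.53, 10.32 and 10.26 in shTdp-43-1, and 10.80, 10.69 and 10.59 in shTdp-43-2. Every array of either hairpin was above every shCont array. All 17 probe sets had positive changes with each hairpin, 0.27 to 0.95 and 0.53 to 1.37. The rise was 1.62-fold with shTdp-43-1 (0.69 ± 0.0957 SE, limma adjusted p = 0.00148) and 2.03-fold with shTdp-43-2 (1.02 ± 0.0957 SE, 4.86e-05). Both calls held under all 18 alternatives.

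The same 3 symbols written in the other order gave a different result. The annotation joins 9 more kept probe sets to the string Nptxr/Npcd/Cbx6, whose values were 11.49, 11.44 and 11.29 in shCont, 11.79, 11.53 and 11.44 in shTdp-43-1, and 11.73, 11.67 and 11.50 in shTdp-43-2. The shTdp-43-1 arrays here reached into the range of the controls. Its log2 change was 0.18 ± 0.108 SE with shTdp-43-1 and 0.23 ± 0.108 SE with shTdp-43-2 (limma adjusted p = 0.303 and 0.169), with all 9 probe sets above 0 in each case. The order of the symbols is that of the annotation, and which exons each order covers was not analysed here. Between the hairpins, Cbx6/Npcd/Nptxr differed by 0.33 ± 0.0957 SE (limma adjusted p = 0.0474), a call lost without shCont replicate 1, 2 or 3, shTdp-43-2 replicate 1 or 2 or shTdp-43-1 replicate 2 or 3 (log2 changes 0.27 to 0.33, limma adjusted p-values 0.0569 to 0.178), and with a dim filter at the 25th percentile, no dim filter, only the 2 groups compared in the fit, the median of probe sets as the locus value or loci of at least 1 probe set in the table.

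Itga4/Cerkl had the largest rise of any multi-symbol locus with shTdp-43-2, and a smaller change with shTdp-43-1. Itga4 encodes the alpha-4 integrin, a receptor for fibronectin and VCAM-1, and Cerkl encodes a ceramide kinase-like protein best known for its role in the retina. RefSeq places them on opposite strands of chromosome 2 with overlapping ends. The 38 probe sets averaged 6.85, 6.87 and 6.70 in shCont, 7.66, 7.06 and 7.34 in shTdp-43-1, and 8.54, 8.50 and 7.86 in shTdp-43-2. All shTdp-43-1 arrays were above all controls, and all shTdp-43-2 arrays were above all of shTdp-43-1. The change with shTdp-43-2 was 2.82-fold (log2 1.50 ± 0.181 SE, limma adjusted p = 0.000214), against 0.55 ± 0.181 SE with shTdp-43-1, which was not called (adjusted p = 0.078). The difference between the hairpins was 0.95 ± 0.181 SE (95% interval 0.55 to 1.35, adjusted p = 0.00675). It held under all 18 alternatives, as did the shTdp-43-2 call. Over these alternatives, which include no dim filter, the shTdp-43-2 change of the locus was 1.378 to 1.715.

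Within Itga4/Cerkl the probe sets varied widely, from 0.004 to 2.82 with shTdp-43-2, and 27 of 38 were called higher one by one. The 9 probe sets of the string Cerkl/Itga4 averaged 8.00016, 7.77 and 7.61 in shCont, 7.69, 7.57 and 7.54 in shTdp-43-1, and 7.54, 7.64 and 7.27 in shTdp-43-2. All 9 had negative changes with shTdp-43-2, and the string changed by -0.31 ± 0.118 SE, which did not pass the test (limma adjusted p = 0.0849). The shTdp-43-2 changes of the 2 orders differed by 1.808 on the log2 scale, the largest such difference among the 46 sets of symbols tested in more than 1 order (median 0.107).

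**Figure D2:**
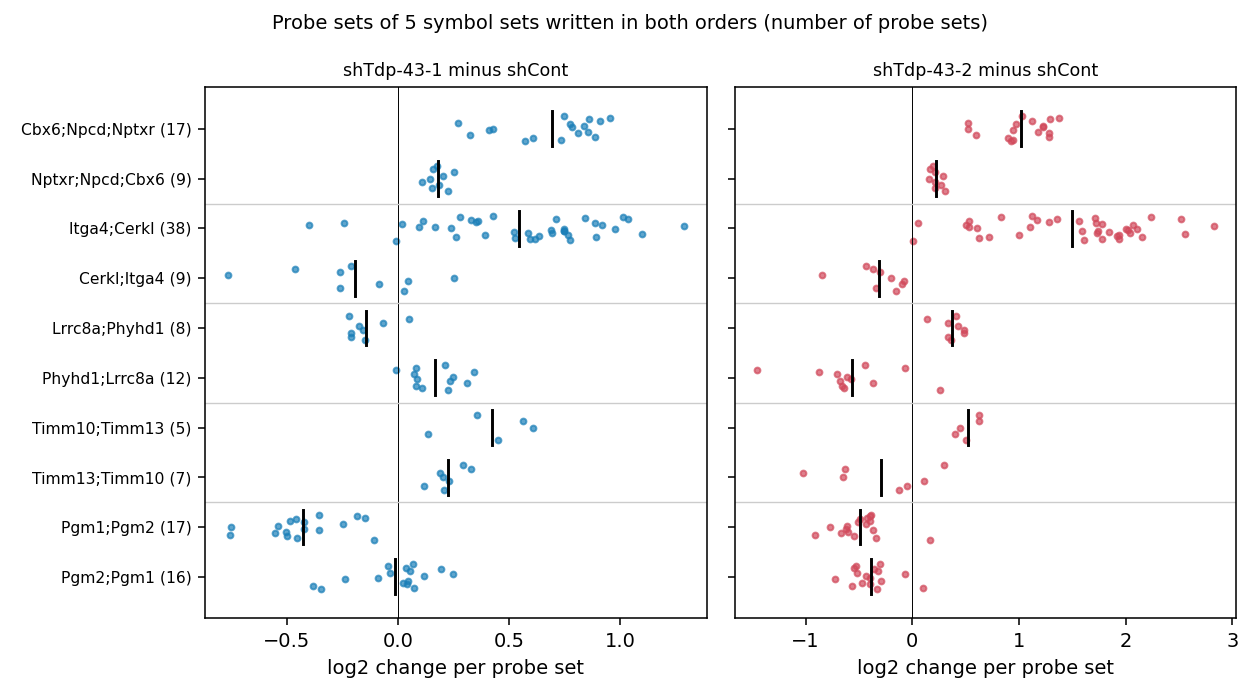
Log2 change of each kept probe set (one point each; black bars are means) with shTdp-43-1 (left) and shTdp-43-2 (right), for 5 sets of symbols that the annotation writes in both orders, with the number of probe sets in brackets. The points of Itga4/Cerkl reach 2.82 with shTdp-43-2 while all 9 of Cerkl/Itga4 lie under 0, and 11 of 12 points of Phyhd1/Lrrc8a lie under 0 while all 8 of Lrrc8a/Phyhd1 lie above it.

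Lrrc8a and Phyhd1 were called in opposite directions in their 2 orders with shTdp-43-2. Lrrc8a encodes the obligatory subunit of the volume-regulated anion channel and Phyhd1 an oxygenase related to phytanoyl-CoA hydroxylase, and they are neighbours on one strand of chromosome 2. The 12 probe sets of Phyhd1/Lrrc8a averaged 8.81, 8.36 and 8.78 in shCont, 8.82, 9.02 and 8.60 in shTdp-43-1, and 7.89, 8.11 and 8.23 in shTdp-43-2. The 8 probe sets of Lrrc8a/Phyhd1 averaged 10.65, 10.47 and 10.66 in shCont, 10.44, 10.54 and 10.37 in shTdp-43-1, and 11.07, 10.92 and 10.90 in shTdp-43-2. In the first string all shTdp-43-2 arrays were below all others, and in the second they were above all others. Phyhd1/Lrrc8a changed by -0.57 ± 0.144 SE and Lrrc8a/Phyhd1 by 0.37 ± 0.088 SE with shTdp-43-2 (limma adjusted p = 0.0152 and 0.0109). With shTdp-43-1 the changes were 0.17 and -0.14, neither called, and the difference between the hairpins was -0.74 ± 0.144 SE and 0.51 ± 0.088 SE (adjusted p = 0.00767 and 0.00369). The shTdp-43-2 call of Phyhd1/Lrrc8a was lost without shCont replicate 1 or 3 or shTdp-43-2 replicate 1 (log2 changes -0.51 to -0.48, limma adjusted p-values 0.0596 to 0.0666), and with the median of probe sets as the locus value. That of Lrrc8a/Phyhd1, a string chosen after its values were seen, was lost without shTdp-43-2 replicate 1 or shCont replicate 2 (log2 changes 0.31 to 0.32, limma adjusted p-values 0.0501 to 0.0537).

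Timm10 and Timm13 are the other set with opposite calls in its 2 orders. They encode small chaperones that carry membrane proteins across the space between the mitochondrial membranes, and their genes lie on different chromosomes. Timm10/Timm13 (5 probe sets) averaged 8.29, 8.33 and 8.60 in shCont, 9.08, 8.86 and 8.55 in shTdp-43-1, and 9.04, 8.999 and 8.75 in shTdp-43-2, and Timm13/Timm10 (7 probe sets) averaged 9.21, 9.22 and 9.09 in shCont, 9.53, 9.38 and 9.29 in shTdp-43-1, and 8.84, 8.92 and 8.87 in shTdp-43-2. Timm10/Timm13 was above all controls on every shTdp-43-2 array, and Timm13/Timm10 was below all controls on every one of them. The log2 changes with shTdp-43-2 were 0.52 ± 0.138 SE and -0.30 ± 0.0836 SE (limma adjusted p = 0.0191 and 0.026), while with shTdp-43-1 both strings had positive changes that were not called (0.42 and 0.22). The first call was lost without shCont replicate 1 or 2 or shTdp-43-2 replicate 1 or 2 (log2 changes 0.46 to 0.49, limma adjusted p-values 0.0619 to 0.0756). The second, of a string chosen after its values were seen, was lost without shCont replicate 1 or 2 or shTdp-43-2 replicate 1 or 3 (log2 changes -0.29 to -0.28, limma adjusted p-values 0.0567 to 0.0909).

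Of 7 tested loci whose 2 genes have the same start window, 1 was lower with shTdp-43-1 and 2 with shTdp-43-2, where 5.86% and 14.0% of all strings were lower. The 7 hold Gprasp1 with Armcx5 and Gdf1 with Lass1 in each of 2 orders, so they are not independent. Cpne1/Rbm12 was lower with both hairpins. Cpne1 encodes a copine, a calcium-dependent phospholipid-binding protein, and Rbm12 an RNA-binding protein, and both arise from the one start shown above on chromosome 2. Its 18 probe sets averaged 10.96, 10.75 and 10.74 in shCont, 10.50, 10.49 and 10.38 in shTdp-43-1, and 9.98, 10.16 and 10.14 in shTdp-43-2. The 3 groups did not overlap, with shTdp-43-2 lowest. All 18 probe sets had negative changes with each hairpin. The change was -0.36 ± 0.0898 SE with shTdp-43-1 and -0.72 ± 0.0898 SE with shTdp-43-2 (limma adjusted p = 0.0268 and 0.000243), which is 0.605 of the control level with the second hairpin. The call with shTdp-43-2 held under all 18 alternatives. That with shTdp-43-1 was lost without shCont replicate 1 or 2 or shTdp-43-1 replicate 2 or 3 (log2 changes -0.39 to -0.29, limma adjusted p-values 0.0578 to 0.114), and with the median of probe sets as the locus value or loci of at least 1 probe set in the table. The difference between the hairpins was -0.36 ± 0.0898 SE (adjusted p = 0.0229), lost without shTdp-43-1 replicate 1 or 2 or shTdp-43-2 replicate 1 (log2 changes -0.35 to -0.31, limma adjusted p-values 0.0601 to 0.103), and with arrays centred on their median or the median of probe sets as the locus value.

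Gprasp1/Armcx5 is the other locus with a shared start that was called, and it was named after its values were seen. Gprasp1 encodes a protein that sorts G protein-coupled receptors to lysosomes and Armcx5 an armadillo-repeat protein, and both lie on the X chromosome. Its 25 probe sets averaged 11.77, 11.76 and 11.80 in shCont, 11.96, 11.89 and 11.93 in shTdp-43-1, and 11.43, 11.60 and 11.44 in shTdp-43-2. The shTdp-43-2 arrays were the lowest and the shTdp-43-1 arrays the highest. The change was -0.29 ± 0.0761 SE with shTdp-43-2 (limma adjusted p = 0.0198) and 0.15 ± 0.0761 SE with shTdp-43-1 (adjusted p = 0.216), and the difference, -0.44 ± 0.0761 SE, was called (adjusted p = 0.00396). The shTdp-43-2 call was lost without shCont replicate 1, 2 or 3 or shTdp-43-2 replicate 1 or 3 (log2 changes -0.29 to -0.26, limma adjusted p-values 0.0542 to 0.0794), and with the median of probe sets as the locus value. The 4 probe sets of Armcx5/Gprasp1 changed by -0.05 with shTdp-43-2 (adjusted p = 0.682).

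Among genes of one strand and chromosome, Nrp2/Pard3b (next to each other on chromosome 1) and Acss2/Myh7b (chromosome 2, with other genes between) fell with both hairpins. Nrp2 encodes neuropilin 2, a receptor for class 3 semaphorins in axon guidance, and Pard3b a cell polarity protein. Its 28 probe sets averaged 10.60, 10.69 and 10.83 in shCont, 10.32, 10.05 and 10.26 in shTdp-43-1, and 10.32, 10.26 and 9.97 in shTdp-43-2. All 28 had negative changes with each hairpin, and no hairpin array reached the lowest control. The change was -0.50 ± 0.112 SE with shTdp-43-1 and -0.52 ± 0.112 SE with shTdp-43-2 (limma adjusted p = 0.0175 and 0.00672). The shTdp-43-2 call held under all 18 alternatives, and the shTdp-43-1 call was lost without shCont replicate 2 or 3 or shTdp-43-1 replicate 2 (log2 changes -0.50 to -0.42, limma adjusted p-values 0.0578 to 0.067).

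Acss2 encodes the acetyl-CoA synthetase of the cytosol and nucleus, and Myh7b a myosin heavy chain. The 24 probe sets of Acss2/Myh7b averaged 11.26, 11.28 and 11.27 in shCont, 10.70, 10.72 and 11.004 in shTdp-43-1, and 10.49, 10.84 and 10.63 in shTdp-43-2. The controls lay close together, and all hairpin arrays were below them. The change was -0.46 ± 0.107 SE with shTdp-43-1 and -0.62 ± 0.107 SE with shTdp-43-2 (limma adjusted p = 0.02 and 0.00197). Of the probe sets, 21 had negative and 3 positive changes with each hairpin, in a range from -1.10 to 0.76 with shTdp-43-2. The shTdp-43-2 call held under all 18 alternatives, and the shTdp-43-1 call was lost without shCont replicate 1, 2 or 3 or shTdp-43-1 replicate 1 or 2 (log2 changes -0.46 to -0.41, limma adjusted p-values 0.0505 to 0.0717), and with a dim filter at the 25th percentile, no dim filter or the median of probe sets as the locus value.

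Vamp1, which encodes synaptobrevin 1 of synaptic vesicles, shares 13 probe sets with its clone-named neighbour E130112N10Rik. They averaged 8.92, 8.61 and 8.63 in shCont, 8.40, 8.25 and 7.97 in shTdp-43-1, and 8.26, 8.08 and 7.80 in shTdp-43-2. The controls were the highest arrays, and the hairpin groups overlapped each other. The change was -0.51 ± 0.142 SE and -0.67 ± 0.142 SE (limma adjusted p = 0.0406 and 0.00588), with negative changes in 12 of 13 probe sets for each. The shTdp-43-1 call was lost without shCont replicate 1, 2 or 3, shTdp-43-1 replicate 2 or 3 or shTdp-43-2 replicate 2 (log2 changes -0.57 to -0.39, limma adjusted p-values 0.0593 to 0.152), and with a dim filter at the 25th percentile, the median of probe sets as the locus value or loci of at least 1 probe set in the table, and the shTdp-43-2 call with the median of probe sets as the locus value.

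Rragb/EG436240 pairs the gene of a Rag GTPase, which brings the growth kinase mTORC1 to lysosomes, with a symbol that is now Foxr2, a forkhead gene beside it on the X chromosome. Its 12 probe sets averaged 11.08, 11.16 and 11.19 in shCont, 10.82, 10.63 and 10.79 in shTdp-43-1, and 10.80, 10.94 and 10.67 in shTdp-43-2 and all had negative changes with each hairpin. The control arrays were again the highest. The change was -0.39 ± 0.0918 SE and -0.34 ± 0.0918 SE (limma adjusted p = 0.02 and 0.022). The first call was lost without shCont replicate 2 or 3 or shTdp-43-1 replicate 2 (log2 changes -0.38 to -0.33, limma adjusted p-values 0.0652 to 0.0791), and with the median of probe sets as the locus value, and the second without shTdp-43-2 replicate 1 or 3 or shCont replicate 2 or 3 (log2 changes -0.33 to -0.27, limma adjusted p-values 0.0614 to 0.0758), and with the median of probe sets as the locus value.

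Zcwpw1/Pilrb2 joins the gene of a histone reader of meiosis to that of a paired immunoglobulin-like receptor, with other genes between them. The log2 values of its 16 probe sets were 8.13, 8.17 and 8.28 in shCont, 7.65, 7.71 and 7.55 in shTdp-43-1, and 8.04, 7.93 and 7.57 in shTdp-43-2. No hairpin array reached the lowest control. The change was -0.55 ± 0.114 SE with shTdp-43-1 (limma adjusted p = 0.012) and -0.35 ± 0.114 SE with shTdp-43-2, where the arrays spread more widely and the adjusted p was 0.0491. The second call was lost without shCont replicate 1, 2 or 3, shTdp-43-1 replicate 1, 2 or 3 or shTdp-43-2 replicate 2 or 3 (log2 changes -0.39 to -0.21, limma adjusted p-values 0.052 to 0.147), and with a dim filter at the 25th percentile, no dim filter, arrays centred on their median, quantile normalization, only the 2 groups compared in the fit, the median of probe sets as the locus value or loci of at least 1 probe set in the table. The first was lost without shTdp-43-1 replicate 3 (log2 change -0.51, limma adjusted p = 0.0506).

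Aarsd1/1700113i22rik, with the gene of an alanyl-tRNA editing protein, had the smallest change with shTdp-43-1 of the loci called with both hairpins. Its 13 probe sets averaged 9.96, 9.88 and 9.92 in shCont, 9.63, 9.65 and 9.60 in shTdp-43-1, and 9.56, 9.60 and 9.53 in shTdp-43-2, with little spread inside each group. The change was -0.29 ± 0.0706 SE and -0.35 ± 0.0706 SE (limma adjusted p = 0.024 and 0.00424). The shTdp-43-1 call was lost without shCont replicate 1, 2 or 3 or shTdp-43-1 replicate 2 or 3 (log2 changes -0.31 to -0.27, limma adjusted p-values 0.0617 to 0.0962), and with a dim filter at the 25th percentile or no dim filter. In the other order, 1700113i22rik/Aarsd1 (3 probe sets) changed by 0.22 and 0.14, and was not called (adjusted p = 0.351 and 0.551).

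Schip1/EG208426 fell with shTdp-43-2. EG208426 is now Iqcj, and Iqcj and Schip1 are neighbours known for a joint transcript whose protein sits at the axon initial segment and nodes of Ranvier. The 4 probe sets averaged 9.54, 9.50 and 9.63 in shCont, 9.41, 9.38 and 9.28 in shTdp-43-1, and 8.81, 9.08 and 8.56 in shTdp-43-2. All shTdp-43-2 arrays were below all others. The change was -0.74 ± 0.117 SE with shTdp-43-2 and -0.20 ± 0.117 SE with shTdp-43-1 (limma adjusted p = 0.00107 and 0.29). The difference between the hairpins was -0.54 ± 0.117 SE (adjusted p = 0.0123), and this and the shTdp-43-2 call held under all 18 alternatives.

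Some neighbouring or overlapping pairs outside the naming rule were picked after their values were seen. Clk2/Scamp3, with the gene of a kinase of splicing factors, fell with shTdp-43-2, with negative changes in all 12 probe sets (-0.46 ± 0.0855 SE, limma adjusted p = 0.00284) and changed by -0.14 with shTdp-43-1 (adjusted p = 0.319). Its difference between the hairpins (-0.33 ± 0.0855 SE, adjusted p = 0.0306) was lost without shTdp-43-1 replicate 1, 2 or 3, shTdp-43-2 replicate 1 or shCont replicate 2 (log2 changes -0.35 to -0.25, limma adjusted p-values 0.0518 to 0.137), and with arrays centred on their median, only the 2 groups compared in the fit, the median of probe sets as the locus value or loci of at least 1 probe set in the table. In the other order, Scamp3/Clk2 (3 probe sets) changed by -0.066 with shTdp-43-2 (adjusted p = 0.83). Scamp4/Adat3, which overlap on chromosome 10 and of which Adat3 encodes a subunit of a transfer RNA deaminase, rose with shTdp-43-1 (0.53 ± 0.124 SE, adjusted p = 0.0209) and changed by 0.28 with shTdp-43-2 (adjusted p = 0.145). That rise was lost without shTdp-43-1 replicate 1 or 2 or shCont replicate 2 (log2 changes 0.42 to 0.48, limma adjusted p-values 0.0503 to 0.0866), and with the median of probe sets as the locus value. Fxc1/Dnhd1, where Fxc1 is now Timm10b, rose with shTdp-43-1 (0.36 ± 0.0895 SE, adjusted p = 0.0268) and changed by -0.16 with shTdp-43-2 (adjusted p = 0.238). Its rise was lost without shCont replicate 1 or 2 or shTdp-43-1 replicate 1, 2 or 3 (log2 changes 0.29 to 0.38, limma adjusted p-values 0.0542 to 0.112), and with a dim filter at the 25th percentile, no dim filter, quantile normalization or the median of probe sets as the locus value, and its difference between the hairpins (-0.52 ± 0.0895 SE, adjusted p = 0.00379) was lost with a dim filter at the 25th percentile or no dim filter.

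Among families of similar genes, Tceal6/Tceal3 rose with both hairpins. These are X-linked genes of proteins related to transcription elongation factor A. The 3 probe sets averaged 8.93, 9.39 and 9.43 in shCont, 10.17, 10.42 and 10.31 in shTdp-43-1, and 9.90, 10.15 and 10.06 in shTdp-43-2. Every hairpin array was above every control. The locus rose 2.07-fold with shTdp-43-1 (log2 1.05 ± 0.132 SE, limma adjusted p = 0.000884) and 1.72-fold with shTdp-43-2 (0.79 ± 0.132 SE, 0.0016). Both calls held under all 18 alternatives. Between the hairpins it differed by -0.27 ± 0.132 SE (95% interval -0.56 to 0.024, adjusted p = 0.239).

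**Figure D3:**
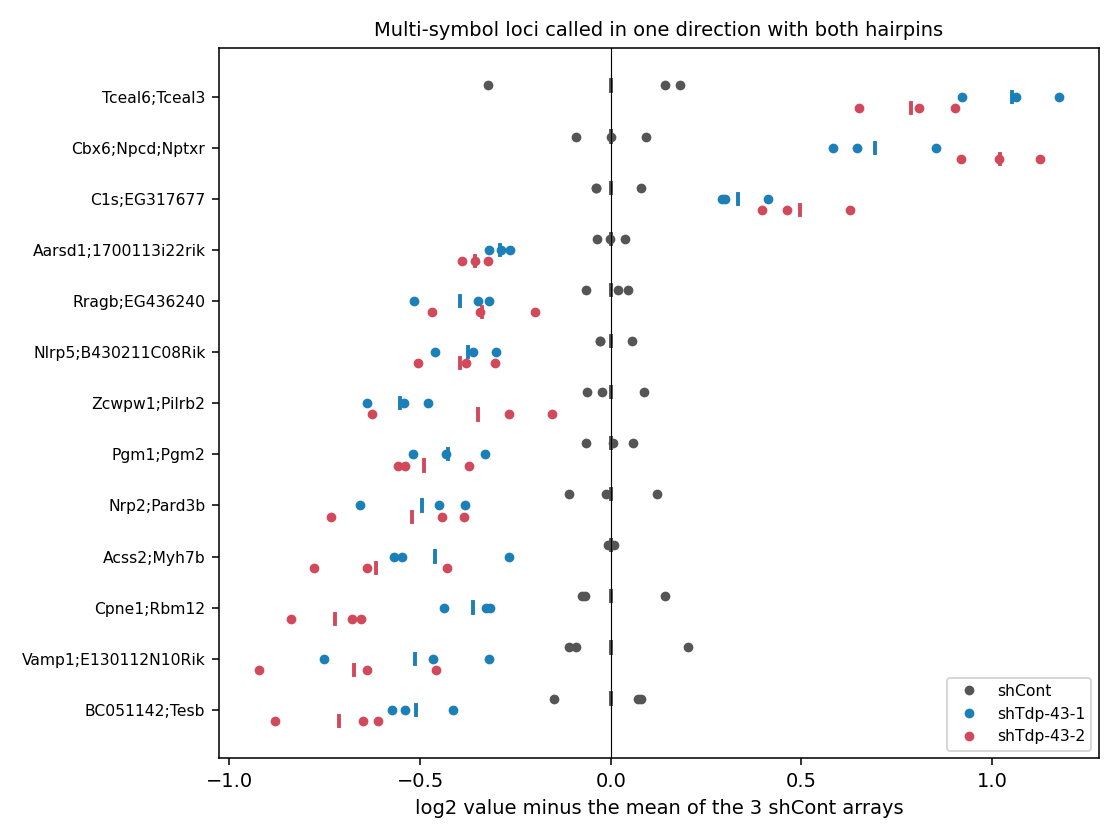
Values of the 13 loci called in one direction with both hairpins, each as its log2 value minus the mean of the 3 shCont arrays (horizontal axis). Points are arrays, coloured by group, and bars are group means. In 3 loci the hairpin arrays lie to the right of all controls and in 10 to the left, with mean changes from -0.72 to 1.05. The loci were chosen by calls on these same arrays, so this separation largely follows from the choice and is no further support.

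Tagap1/Tagap rose with shTdp-43-2 and was not called with shTdp-43-1. The 11 probe sets averaged 10.36, 10.21 and 10.39 in shCont, 10.63, 10.57 and 10.22 in shTdp-43-1, and 11.17, 11.14 and 11.10 in shTdp-43-2. The shTdp-43-2 arrays lay above all others and close together. The change was 0.81 ± 0.108 SE with shTdp-43-2 and 0.15 ± 0.108 SE with shTdp-43-1 (limma adjusted p = 0.000369 and 0.373), and the difference of 0.66 ± 0.108 SE was called (adjusted p = 0.00277). Both calls held under all 18 alternatives. The 2 probe sets of the string Fgfr1op/Tagap1 (Fgfr1op is now Cep43), named after their values were seen, were also called higher with shTdp-43-2, by 1.02 and 0.83 (limma adjusted p = 0.0123 and 0.0196).

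Kir3dl1/Kir3dl2, killer immunoglobulin-like receptor genes that overlap on opposite strands of the X chromosome, and C1s/EG317677, the C1s proteases of complement (now C1s1 and C1s2), were dim loci. Kir3dl1/Kir3dl2 (3 probe sets) averaged 6.41, 6.78 and 6.49 in shCont, 6.72, 6.58 and 6.54 in shTdp-43-1, and 7.33, 7.38 and 6.78 in shTdp-43-2. Its shTdp-43-2 arrays overlapped the controls, and the change of 0.60 ± 0.151 SE (limma adjusted p = 0.0147) was lost without shCont replicate 1 or 3 or shTdp-43-2 replicate 1 or 2 (log2 changes 0.49 to 0.56, limma adjusted p-values 0.0518 to 0.0626), and with a dim filter at the 25th percentile or no dim filter. The difference between the hairpins, 0.55 ± 0.151 SE (adjusted p = 0.0383), was lost without shTdp-43-2 replicate 1 or 2, shTdp-43-1 replicate 2 or 3 or shCont replicate 3 (log2 changes 0.44 to 0.55, limma adjusted p-values 0.0508 to 0.14), and with a dim filter at the 25th percentile, no dim filter, only the 2 groups compared in the fit or loci of at least 1 probe set in the table. C1s/EG317677 (5 probe sets) averaged 6.22, 6.10 and 6.10 in shCont, 6.43, 6.55 and 6.44 in shTdp-43-1, and 6.77, 6.60 and 6.54 in shTdp-43-2, near the median of the table. Its groups did not overlap the controls, and it changed by 0.33 ± 0.0854 SE and 0.50 ± 0.0854 SE (adjusted p = 0.0297 and 0.00184). The dim filter used the mean over all arrays, so a probe set near the cut could be kept for its hairpin values alone. Every call given here for these dim loci was lost when the cut was lowered and when it was left out. Those refits also add dimmer probe sets to the mean of a locus. How much of each change came from the choice of probe sets was not tested. Over the 18 alternatives Kir3dl1/Kir3dl2 changed by 0.32 to 0.79 with shTdp-43-2. C1s/EG317677 changed by 0.17 to 0.43 with shTdp-43-1 and by 0.31 to 0.57 with shTdp-43-2. The shTdp-43-1 call was lost without shCont replicate 1, 2 or 3 or shTdp-43-1 replicate 2 or 3 (log2 changes 0.30 to 0.37, limma adjusted p-values 0.0588 to 0.109), and with a dim filter at the 25th percentile, no dim filter, arrays centred on their median, quantile normalization, a mean-variance trend or loci of at least 1 probe set in the table, and the shTdp-43-2 call with a dim filter at the 25th percentile or no dim filter.

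Pgm1/Pgm2 fell with both hairpins. These phosphoglucomutases convert glucose 1-phosphate and glucose 6-phosphate. RefSeq places the 2 symbols on different chromosomes and lists each as a synonym of the other gene. The string may cover both genes, or 1 gene under an older and a newer name, which was not analysed. By its symbols it is counted below among loci with genes on different chromosomes. The 17 probe sets averaged 10.04, 9.98 and 9.91 in shCont, 9.55, 9.65 and 9.46 in shTdp-43-1, and 9.44, 9.61 and 9.42 in shTdp-43-2. All hairpin arrays were below all controls. The change was -0.43 ± 0.0855 SE and -0.49 ± 0.0855 SE (limma adjusted p = 0.0103 and 0.00198). The first call was lost without shCont replicate 1 (log2 change -0.40, limma adjusted p = 0.051), and with the median of probe sets as the locus value, and the second held under all 18 alternatives. In the other order, Pgm2/Pgm1 (16 probe sets, named after its values were seen) changed by -0.015 with shTdp-43-1 (adjusted p = 0.945) and fell with shTdp-43-2 (-0.38 ± 0.114 SE, adjusted p = 0.0319). The latter call was lost without shCont replicate 1, 2 or 3 or shTdp-43-2 replicate 1 or 3 (log2 changes -0.42 to -0.33, limma adjusted p-values 0.0557 to 0.0996), and with the median of probe sets as the locus value or loci of at least 1 probe set in the table.

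Replication-dependent histone genes, whose messages end in a stem-loop instead of a poly(A) tail, form 10 tested loci, of which 3 were higher with shTdp-43-2 and 0 lower in limma, where 7.67% of all strings were higher and 14.0% lower (4 higher and 0 lower at an unadjusted p under 0.05). With shTdp-43-1 none was called, and 2 were higher and 0 lower at an unadjusted p under 0.05. The median change of the 10 was 0.143 and 0.175. The string of Hist1h2be, Hist1h2bb, Hist1h2bg and Hist1h2bc (now H2bc6, H2bc3, H2bc8 and H2bc4; 6 probe sets) averaged 8.91, 8.48 and 8.69 in shCont, 8.97, 8.92 and 8.77 in shTdp-43-1, and 9.48, 9.20 and 9.37 in shTdp-43-2. It lay above all other arrays on each shTdp-43-2 array. The change was 0.66 ± 0.117 SE (limma adjusted p = 0.00221, held under all 18 alternatives), and its difference between the hairpins of 0.46 ± 0.117 SE (adjusted p = 0.0254) was lost without shTdp-43-2 replicate 1 or 3 or shTdp-43-1 replicate 2 or 3 (log2 changes 0.40 to 0.48, limma adjusted p-values 0.052 to 0.105), and with loci of at least 1 probe set in the table.

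The same 4 genes in other orders form 2 more tested strings of 3 probe sets each: the one led by Hist1h2bb changed by -0.02 with shTdp-43-2 and the one led by Hist1h2bg by 0.15, and neither was called (limma adjusted p = 0.912 and 0.386). A further order, led by Hist1h2bc and named after its values were seen, kept 2 probe sets. Of these, 1 was called higher with shTdp-43-2 (log2 0.99, limma adjusted p = 0.0141).

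A string of 8 histone H3 genes led by Hist2h3c1 (10 probe sets) changed by 0.51 ± 0.137 SE with shTdp-43-2 (limma adjusted p = 0.0213). Its probe sets were uneven, from -0.14 to 1.51. The call was lost without shTdp-43-2 replicate 1 or shCont replicate 2 (log2 changes 0.33 to 0.46, limma adjusted p-values 0.055 to 0.0732), and with no dim filter or the median of probe sets as the locus value. The H2B string led by Hist1h2bf (3 probe sets) changed by 0.35 ± 0.0901 SE (adjusted p = 0.0173), a call lost without shCont replicate 1, 2 or 3 or shTdp-43-2 replicate 2 or 3 (log2 changes 0.29 to 0.35, limma adjusted p-values 0.0517 to 0.059). The string with the most symbols, 12 histone H4 genes led by Hist1h4c (10 probe sets), changed by -0.045 with shTdp-43-1 (95% interval -0.28 to 0.19) and by 0.003 with shTdp-43-2 (95% interval -0.24 to 0.24), and was not called with either.

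The clustered protocadherins give each neuron a surface identity by joining one variable exon to shared constant exons, so their strings cover many isoforms at once. Of 11 tested loci, 2 were higher and 0 lower with shTdp-43-2, against 7.67% and 14.0% of all strings (4 and 0 at an unadjusted p under 0.05), and none was called with shTdp-43-1 (2 higher and 1 lower at an unadjusted p under 0.05). Pcdha2/Pcdha4/Pcdha6 averaged 9.30, 9.34 and 9.19 in shCont, 9.81, 9.56 and 9.40 in shTdp-43-1, and 9.76, 9.95 and 9.43 in shTdp-43-2, and Pcdhgc4/Pcdhga12 averaged 10.83, 10.94 and 10.83 in shCont, 11.26, 10.99 and 11.01 in shTdp-43-1, and 11.26, 11.30 and 11.03 in shTdp-43-2. In both strings all shTdp-43-2 arrays were above all controls. They changed by 0.44 ± 0.136 SE and 0.32 ± 0.101 SE with shTdp-43-2 (limma adjusted p = 0.0397 and 0.0399). The first call was lost without shCont replicate 1, 2 or 3 or shTdp-43-2 replicate 1 or 2 (log2 changes 0.32 to 0.47, limma adjusted p-values 0.074 to 0.137), and with a dim filter at the 25th percentile, no dim filter or loci of at least 1 probe set in the table. The second was lost without shCont replicate 1, 2 or 3, shTdp-43-2 replicate 1 or 2 or shTdp-43-1 replicate 3 (log2 changes 0.27 to 0.36, limma adjusted p-values 0.0526 to 0.12), and with a dim filter at the 25th percentile, no dim filter, the median of probe sets as the locus value or loci of at least 1 probe set in the table.

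No tested locus of the Ugt1a, immune, respiratory chain and zinc finger classes was called. Among short strings of the respiratory chain class, the 1 probe set of Atp5l2/EG227112 was called lower with shTdp-43-2 (log2 -0.80, limma adjusted p = 0.0398). H2 strings that also carry 0610037M15Rik fall outside the immune class. In that led by H2-Q2, 1 of 5 probe sets was called lower with shTdp-43-2 (log2 -1.19). The 5 Ugt1a loci, alternative first exons of one glucuronosyltransferase gene, changed by -0.086 to 0.25 with shTdp-43-1 and 0.099 to 0.31 with shTdp-43-2, with 0 called by limma and 0 at an unadjusted p under 0.05. The 6 immune loci, 5 of H2 genes of the major histocompatibility complex and 1 of Oas1a and Oas1g, changed by -0.044 to 0.44 and -0.036 to 0.21, with 0 called by limma (2 higher with shTdp-43-1 at an unadjusted p under 0.05). The 5 loci of respiratory chain genes ran from -0.12 to 0.070 and from -0.083 to 0.094, and the 3 zinc finger loci from -0.18 to 0.14 and from -0.094 to 0.17, with 0 called and 0 at an unadjusted p under 0.05 in either. Snrpn/Snurf, an imprinted locus whose message carries both reading frames, changed by 0.19 ± 0.074 SE and 0.20 ± 0.074 SE over 14 probe sets and missed the threshold with each hairpin (limma adjusted p = 0.127 and 0.0759).

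Strings that pair a gene with pseudogenes on other chromosomes held the strings of Hnrnpa1. Hnrnpa1 encodes a splicing factor of the same protein class as Tdp-43, and its probe sets also match XM_001481145 (now Gm10052), EG545091 (now Hnrnpa1l2-ps2) and EG434858 (now Gm5643). All 6 tested strings with Hnrnpa1 (29 probe sets) fell with shTdp-43-2, with log2 changes of -0.76 to -0.54, and 0 were called with shTdp-43-1, where changes were -0.22 to -0.15 (3 with an unadjusted p under 0.05). These strings share a gene and are not independent. Hnrnpa1/XM_001481145/EG545091, which the naming rule takes, averaged 11.21, 11.25 and 11.11 in shCont, 10.87, 11.14 and 10.99 in shTdp-43-1, and 10.20, 10.51 and 10.57 in shTdp-43-2. The shTdp-43-2 arrays were below all others. It changed by -0.76 ± 0.109 SE with shTdp-43-2 (limma adjusted p = 0.000629) and -0.19 ± 0.109 SE with shTdp-43-1 (adjusted p = 0.292), and by -0.57 ± 0.109 SE between them (adjusted p = 0.00661). The shTdp-43-2 calls of all 6 strings held under all 18 alternatives. Of the 6 calls between the hairpins, 4 did so; that of Hnrnpa1/EG434858 was lost without shTdp-43-2 replicate 1 or 2 or shTdp-43-1 replicate 2 or 3 (log2 changes -0.40 to -0.33, limma adjusted p-values 0.0709 to 0.123), and with no dim filter, arrays centred on their median, only the 2 groups compared in the fit, the median of probe sets as the locus value or loci of at least 1 probe set in the table, and that of XM_001481145/Hnrnpa1 without shTdp-43-2 replicate 1 or shTdp-43-1 replicate 2 or 3 (log2 changes -0.39 to -0.30, limma adjusted p-values 0.0835 to 0.104), and with arrays centred on their median, only the 2 groups compared in the fit or loci of at least 1 probe set in the table.

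2010321M09Rik/6330549D23Rik had the largest fall of any multi-symbol locus, and was named after its values were seen because the naming rule passes over clone-like symbols. 2010321M09Rik is now Ints14, a subunit of the Integrator complex that cleaves small nuclear RNA. The 6 probe sets averaged 10.93, 10.86 and 10.88 in shCont, 10.78, 10.77 and 10.54 in shTdp-43-1, and 9.52, 9.87 and 9.68 in shTdp-43-2. All 6 were called lower with shTdp-43-2 one by one. With shTdp-43-2 the locus fell to 0.435 of its shCont level (log2 -1.20 ± 0.102 SE, limma adjusted p = 2.6e-05) and changed by -0.19 ± 0.102 SE with shTdp-43-1 (adjusted p = 0.247). The difference between the hairpins, -1.01 ± 0.102 SE (adjusted p = 0.000243), and the shTdp-43-2 call held under all 18 alternatives.

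Mrpl27/EG622268, a mitochondrial ribosomal protein gene and its pseudogene, fell with shTdp-43-2 and differed between the hairpins. The 6 probe sets averaged 10.38, 10.38 and 10.35 in shCont, 10.57, 10.52 and 10.45 in shTdp-43-1, and 9.73, 9.91 and 9.68 in shTdp-43-2. All 6 had negative changes with shTdp-43-2 and positive changes with shTdp-43-1. The changes were -0.60 ± 0.0818 SE and 0.14 ± 0.0818 SE (limma adjusted p = 0.000462 and 0.277), and the difference between the hairpins was -0.74 ± 0.0818 SE (adjusted p = 0.000343). Both calls held under all 18 alternatives.

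Immp1l/EG666465, with the gene of a peptidase of the inner mitochondrial membrane and the pseudogene Gm8121, showed the opposite order. Its 12 probe sets averaged 9.47, 9.41 and 9.56 in shCont, 9.05, 8.92 and 9.12 in shTdp-43-1, and 9.87, 9.74 and 9.59 in shTdp-43-2. The shTdp-43-1 arrays were the lowest and the shTdp-43-2 arrays the highest. It fell with shTdp-43-1 (-0.45 ± 0.0938 SE, limma adjusted p = 0.0121), changed by 0.25 ± 0.0938 SE with shTdp-43-2 (adjusted p = 0.079), and differed between the hairpins by 0.70 ± 0.0938 SE (adjusted p = 0.000876), which held under all 18 alternatives. The shTdp-43-1 call was lost without shTdp-43-1 replicate 2 (log2 change -0.40, limma adjusted p = 0.0506), and with the median of probe sets as the locus value.

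Strings with a ribosomal protein gene, whatever its partner, form 11 tested loci. Of these, 2 were lower and 0 higher with shTdp-43-1, against 5.86% and 5.06% of all strings (6 and 0 at an unadjusted p under 0.05, which 27.4% of all strings passed in either direction), and 0 were called with shTdp-43-2 by limma (1 lower and 0 higher at an unadjusted p under 0.05). Their median change was -0.224 and -0.095 with the hairpins in that order. Rps4x/EG668668 averaged 11.51, 11.65 and 11.62 in shCont, 11.26, 11.30 and 11.35 in shTdp-43-1, and 11.46, 11.54 and 11.48 in shTdp-43-2. The shTdp-43-1 arrays were below all others, a change of -0.29 ± 0.0753 SE (limma adjusted p = 0.0305), lost without shCont replicate 1, 2 or 3 or shTdp-43-1 replicate 1, 2 or 3 (log2 changes -0.33 to -0.26, limma adjusted p-values 0.054 to 0.116), and with the median of probe sets as the locus value. Rplp2/Wdr89, a ribosomal stalk protein gene and a WD-repeat gene on another chromosome, changed by -0.34 ± 0.0991 SE (adjusted p = 0.0494), lost without shCont replicate 1, 2 or 3, shTdp-43-1 replicate 1 or 3 or shTdp-43-2 replicate 1, 2 or 3 (log2 changes -0.36 to -0.24, limma adjusted p-values 0.0505 to 0.166), and with a dim filter at the 25th percentile, no dim filter, only the 2 groups compared in the fit, the median of probe sets as the locus value or loci of at least 1 probe set in the table.

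Some strings hold 1 gene under its current and an older name, 14 loci in all. BC051142/Tesb, a testis-expressed basic protein gene on chromosome 17, fell with both hairpins. Its 15 probe sets averaged 8.49, 8.27 and 8.50 in shCont, 7.88, 8.01 and 7.85 in shTdp-43-1, and 7.77, 7.81 and 7.54 in shTdp-43-2. No hairpin array reached the controls. The change was -0.51 ± 0.0994 SE and -0.71 ± 0.0994 SE (limma adjusted p = 0.00903 and 0.000518), with negative changes in 14 of 15 probe sets for each, and both calls held under all 18 alternatives.

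EG328644/Vwa5b2, now Vwa5b2 alone, rose with shTdp-43-1 and was not called with shTdp-43-2. The 8 probe sets averaged 8.33, 7.87 and 7.81 in shCont, 8.76, 8.64 and 8.43 in shTdp-43-1, and 7.66, 7.86 and 7.73 in shTdp-43-2. All shTdp-43-1 arrays were above all others, while shTdp-43-2 overlapped the controls at the lower end. The change was 0.61 ± 0.136 SE with shTdp-43-1 (limma adjusted p = 0.0164) and -0.25 ± 0.136 SE with shTdp-43-2 (adjusted p = 0.224), a difference of -0.86 ± 0.136 SE (adjusted p = 0.00237) that held under all 18 alternatives. The rise with shTdp-43-1 was lost without shCont replicate 2 or 3 or shTdp-43-1 replicate 2 (log2 changes 0.52 to 0.60, limma adjusted p-values 0.0511 to 0.0711).

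Arid2/1700124K17Rik, another string of 1 gene, named after its values were seen, holds 37 probe sets of a subunit of a SWI/SNF chromatin remodeller. All 37 had negative changes with shTdp-43-2, and the locus fell, with a change of -0.42 ± 0.0929 SE (limma adjusted p = 0.00755) that held under all 18 alternatives, against -0.044 ± 0.0929 SE with shTdp-43-1 (adjusted p = 0.784). The difference between the hairpins (-0.38 ± 0.0929 SE, adjusted p = 0.0229) was lost without shTdp-43-1 replicate 1 or 3 or shTdp-43-2 replicate 1 or 3 (log2 changes -0.38 to -0.31, limma adjusted p-values 0.0624 to 0.0841), and with arrays centred on their median, only the 2 groups compared in the fit or the median of probe sets as the locus value.

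Nlrp5/B430211C08Rik pairs an oocyte gene with a symbol that is now the pheromone receptor Vmn1r90, elsewhere on chromosome 7. Its 4 probe sets averaged 10.89, 10.80 and 10.80 in shCont, 10.47, 10.53 and 10.37 in shTdp-43-1, and 10.53, 10.45 and 10.33 in shTdp-43-2, with all hairpin arrays below all controls. The change was -0.37 ± 0.0827 SE and -0.40 ± 0.0827 SE (limma adjusted p = 0.0159 and 0.00561). The first call was lost without shCont replicate 1 or shTdp-43-1 replicate 3 (log2 changes -0.35 to -0.33, limma adjusted p-values 0.0643 to 0.0707), and with a dim filter at the 25th percentile, no dim filter or the median of probe sets as the locus value, and the second with a dim filter at the 25th percentile or no dim filter.

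The string with the most kept probe sets, Ankhd1/Eif4ebp3 (51), whose genes are known for a joint transcript, did not pass the test, nor did the 3 probe sets of Eif4ebp3/Ankhd1. Its values were 9.99, 10.04 and 10.21 in shCont, 10.06, 10.01 and 10.20 in shTdp-43-1, and 9.95, 10.18 and 9.90 in shTdp-43-2. The groups overlapped. The change was 0.009 with shTdp-43-1 (95% interval -0.21 to 0.23) and -0.069 with shTdp-43-2 (95% interval -0.29 to 0.15), with limma adjusted p-values of 0.963 and 0.669.

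Over all strings, 7.67% were higher and 14.0% lower with shTdp-43-2, and 5.06% and 5.86% with shTdp-43-1. By the kind of string, of 114 loci of same-stem families, 11 were higher and 9 lower with shTdp-43-2. Of 117 loci that join one named gene to clone-like symbols, 1 was higher and 20 were lower, and of 130 loci of named genes with different stems, 6 were higher and 13 lower. With shTdp-43-1 the counts were 2 and 2, 2 and 8, and 5 and 11. In RefSeq gene order, 51 loci hold overlapping genes, 102 hold genes next to each other, 100 hold genes of one chromosome with others between, and 111 hold genes on different chromosomes. With shTdp-43-2, 9.8% of the overlapping loci were higher and 5.88% lower, while 2.7% of the loci on different chromosomes were higher and 17.1% lower. No test of these classes against each other was made. Their loci are not independent, since several strings repeat one gene, as with the 6 strings of Hnrnpa1.

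**Figure D4:**
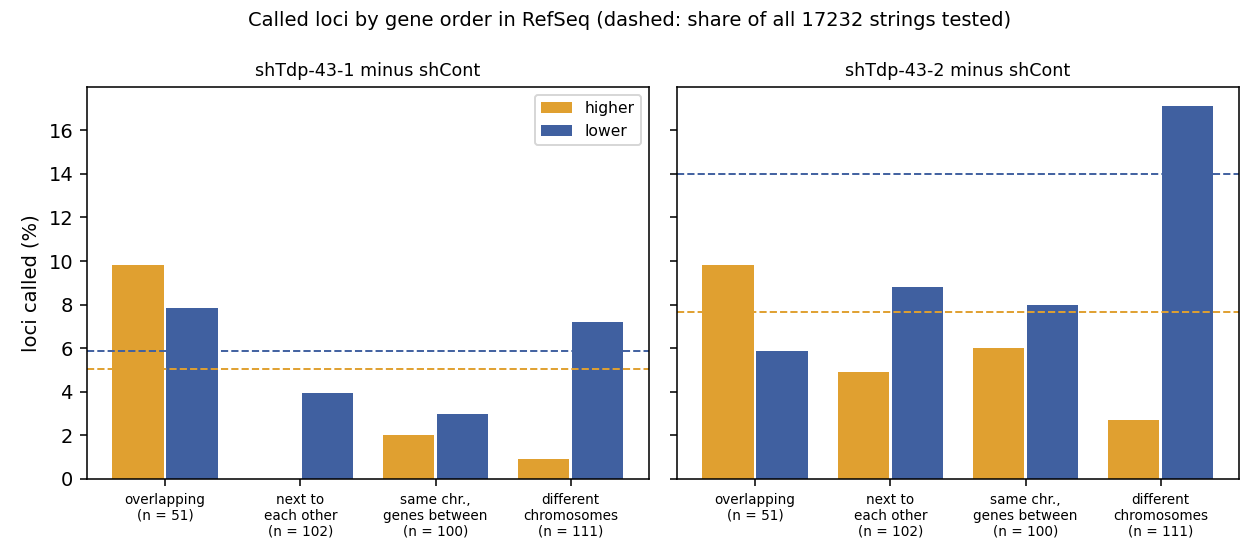
Share of multi-symbol loci called higher or lower (vertical axis, percent) with each hairpin, by the place of their genes in RefSeq (horizontal axis, with the number of loci). Dashed lines are the shares over all 17232 strings tested. With shTdp-43-2 the lower calls reach 17.1% of the 111 loci with genes on different chromosomes, and are 5.88% of the 51 with overlapping genes.

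The 691 strings with 1 or 2 kept probe sets hold 881 members, of which 9 were called with shTdp-43-2 (1.02%, against 1.54% of all probe sets) and none with shTdp-43-1 by limma. The largest fall among the 9 was that of the only kept probe set of Tarsl2/Tm2d3, neighbouring genes of a threonyl-tRNA synthetase and a membrane protein, named after its value was seen. It read 8.31, 8.33 and 8.55 in shCont, 5.64, 6.00 and 6.74 in shTdp-43-1, and 6.76, 7.01 and 5.46 in shTdp-43-2. All hairpin arrays were below all controls. The log2 change was -2.26 ± 0.388 SE with shTdp-43-1 and -1.98 ± 0.388 SE with shTdp-43-2 (limma adjusted p = 0.0725 and 0.0378). The lowest adjusted p of any member with shTdp-43-1 was 0.0507, for a probe set of Tceal6/Tceal3 and one of the histone H3 string.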

How the data were processed

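The authors deposited 1 table of log2 values per probe set and array, from Affymetrix Mouse Exon 1.0 ST arrays, made at the exon level by RMA; Affymetrix Expression Console and the genome build mm9 are named, per the submitters' processing notes. The sources used here give no versions. RMA normalizes the arrays to one another and pulls dim probe sets towards background. The deposited values still differed in level between groups. The median over all probe sets was 6.042, 6.064 and 6.053 in shCont and 6.151, 6.187 and 6.183 in shTdp-43-1. In shTdp-43-2 it was 6.059, 6.057 and 6.092. No array column was left unused.

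Symbols came from the platform annotation and were updated through RefSeq (GRCm38.p6, names and gene order only): of 1544 symbols, 1043 were current, 482 updated and 19 kept as given. Groups were fitted together in limma 3.58.1 (R 4.3.3; lmFit and eBayes, 6 residual degrees of freedom) over 628416 probe sets at or above the median, and over 17232 strings with at least 3 of them, with Benjamini-Hochberg adjustment over each table. Each ± is a standard error of that fit with n = 3 arrays per group. With 3 arrays against 3, an exact two-sided permutation test cannot go below 0.1 and was not used. The fit was tested on simulated data. No block was used, since the labels do not say that a replicate number marks a shared culture or day. Of 9 same-number correlations of deviations, 4 were over 0.1, in a range from -0.2444 to 0.4173. Those of replicate 1 were 0.2214, 0.1951 and 0.4173. They do not settle whether the numbers pair the arrays.

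The rule for names took, without strings of clone-like symbols alone: up to 12 loci per direction called with both hairpins, probe sets of short strings called with both (none), the 4 per direction most different between hairpins, strings with calls in opposite directions (none), up to 4 called loci of each class, and the strings with most probe sets and most symbols. XM_ accessions were also treated as clone-like, which the rule did not say. The members and lists were chosen with earlier results of these data known. Most named loci were chosen by their calls on these arrays. Where arrays of their groups are said not to overlap, that describes the choice and is no further support. The 18 alternatives were 9 other settings and leaving out each of the 9 arrays.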

Additional observations from a re-analysis of the deposited data

Results flagged for a closer look

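These loci differed between the hairpins in limma at an adjusted p under 0.05 (shTdp-43-2 minus shTdp-43-1, log2 scale); no explanation was weighed.

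Higher with shTdp-43-2 were Itga4/Cerkl (0.9509), Immp1l/EG666465 (0.7045), Tagap1/Tagap (0.6613), Kir3dl1/Kir3dl2 (0.5477), Lrrc8a/Phyhd1 (0.5144), the histone string of Hist1h2be, Hist1h2bb, Hist1h2bg and Hist1h2bc (0.4629) and Cbx6/Npcd/Nptxr (0.3283).

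Lower with shTdp-43-2 were 2010321M09Rik/6330549D23Rik (-1.007), EG328644/Vwa5b2 (-0.8618), Mrpl27/EG622268 (-0.7412), Phyhd1/Lrrc8a (-0.7352), Schip1/EG208426 (-0.5423), Timm13/Timm10 (-0.5211), Fxc1/Dnhd1 (-0.521), Gprasp1/Armcx5 (-0.4395), Arid2/1700124K17Rik (-0.3768), Cpne1/Rbm12 (-0.3643) and Clk2/Scamp3 (-0.325). The 6 strings of Hnrnpa1 were lower as well: with XM_001481145 and EG545091 -0.5746, with XM_001481145 -0.5425, with EG434858 -0.3975, with XM_001481145 and EG434858 -0.375, and, with XM_001481145 written first, -0.4112 alone and -0.421 with EG545091.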

How the results depend on the processing

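Of 1458 recomputed values (81 called values of named loci under 18 alternatives), 1215 kept direction and call, 243 kept the direction and lost the call, and 0 reversed. Member probe sets called with shTdp-43-2 were 119, and 32 with a dim filter at the 25th percentile, 10 with no dim filter, 46 with only the groups compared and 251 with a mean-variance trend; between the hairpins they were 11, and 0, 0, 0 and 95 in the same order, and 7 with arrays centred. With shTdp-43-1 they were 0, and 3 with quantile normalization and 33 with the trend; in the same direction with both hairpins 0, and 2 and 20. Loci called with both hairpins were 13, and 8 with the 25th percentile filter, 20 with the trend and 6 with the median of probe sets as the locus value; that last choice gave 13 loci with shTdp-43-1 (32) and 25 between the hairpins (43).

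Leaving out 1 array gave 0 to 1 member probe sets with shTdp-43-1, 10 to 92 with shTdp-43-2, 0 to 2 between the hairpins and 0 to 0 with both, and 11 to 37, 43 to 69, 23 to 44 and 5 to 16 loci. Of the 13 loci called with both hairpins, from 5 to 12 were still called without 1 array. Among these same 13, 7 were still called with the 25th percentile filter and 8 with no dim filter. The median of probe sets kept 6, and loci of at least 1 probe set kept 9. The other settings kept from 11 to 13. With the replicate number as a block, 40, 77, 51 and 17 loci were called, 80 member probe sets with shTdp-43-2 and 0 between the hairpins; all 13 loci called with both remained. Whether the numbers pair the arrays is not known, so this block is a check only. Having 3 arrays per group limits the precision, and loci near the median of the table lie close to background.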
